A study of Homo sapiens with 6 samples.

Results

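Sestrins, NIBAN1 and a set of other regulators of mTORC1 were examined in HT29 cells, an established line from a colon adenocarcinoma, that were or were not given NS398, which inhibits the prostaglandin-forming enzyme COX2. The 10 genes are SESN1, SESN2, SESN3, DDIT4, NIBAN1, TSC1, TSC2, DEPTOR, RRAGD and EIF4EBP1. They were taken from a fixed list of symbols, and every probe set of the array whose annotation names one of them alone was kept, which gave 21 probe sets of 54675, for 10 genes of the 19775 that have a probe set of their own. The genes were selected on their role in mTORC1 control and with the difference in log2 signal between NS398 and control known, so their differences are a description. Whether a probe set passed the threshold of the fit across all probe sets is stated to place it, with no p-value, and is no independent evidence. Per the methods of the study, cells were kept in serum-free medium for 72 h with 100 μM NS398 or, as control, with 0.1% DMSO, the solvent. There were 3 samples with NS398 and 3 controls, each read on its own HG-U133 Plus 2.0 array, with biotinylated cRNA made from total RNA. HT29 is a single established cell line, and the samples of a group are biological replicates per the study's methods, while the labels do not tell how the cultures were separated, so all measures of error cover the spread between these samples only.

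mTORC1 is the kinase complex that couples growth factors, amino acids and energy to protein synthesis and cell growth. Growth factor signals reach it through the TSC complex, which switches off the small GTPase RHEB, and amino acids reach it through the Rag GTPases on the lysosome. Sestrins are stress-induced proteins that bind GATOR2 and so restrain the Rag branch, and SESN2 is a leucine sensor. DDIT4 (REDD1) acts through the TSC complex. Much of this control works through binding and phosphorylation, which an array does not measure.

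Start regions are shown for NIBAN1, which had the largest difference, for SESN2, the sestrin that was higher in the NS398 arrays, and for the genes whose window held a searched motif. RefSeq (GRCh38.p14) start windows of 300 bases, from 250 before to 50 after the start, were at hand for 7 of the 10 genes (10 windows). EIF4EBP1, DEPTOR and RRAGD had none. Both strands were searched for TGATGNAA (the core of the C/EBP-ATF element, bound by ATF4), TCACGTGA (the core of the CLEAR element, bound by TFEB), GTAAACA (a FOXO element) and the p53 half-site. The first 3 occur in 3.62%, 0.98% and 3.42% of 35116 RefSeq windows, and the half-site in 6.63%. A match was found in 2 of the 10 windows. In the first of the TSC2 windows the CLEAR core starts 115 bases and the C/EBP-ATF core 110 bases before the start, and they overlap. In the third SESN1 window a p53 half-site starts 49 bases before the start. The 250 bases before each start are given 5′ to 3′ with matches in capitals, for TSC2 (chr16:2047735-2047984, plus strand), SESN1 (chr6:109008989-109009238, minus strand), NIBAN1 (chr1:184974509-184974758, minus strand) and SESN2 (chr1:28259268-28259517, plus strand).
TSC2: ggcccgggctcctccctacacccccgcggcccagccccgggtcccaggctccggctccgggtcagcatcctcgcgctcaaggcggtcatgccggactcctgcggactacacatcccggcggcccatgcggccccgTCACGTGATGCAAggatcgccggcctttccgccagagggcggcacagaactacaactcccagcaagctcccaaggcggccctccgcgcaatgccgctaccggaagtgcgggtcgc
SESN1: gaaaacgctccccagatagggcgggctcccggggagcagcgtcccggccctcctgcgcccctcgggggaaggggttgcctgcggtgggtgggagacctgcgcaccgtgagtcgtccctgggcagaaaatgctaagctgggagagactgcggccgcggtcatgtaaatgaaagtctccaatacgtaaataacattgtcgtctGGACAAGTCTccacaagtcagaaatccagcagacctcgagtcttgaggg
NIBAN1: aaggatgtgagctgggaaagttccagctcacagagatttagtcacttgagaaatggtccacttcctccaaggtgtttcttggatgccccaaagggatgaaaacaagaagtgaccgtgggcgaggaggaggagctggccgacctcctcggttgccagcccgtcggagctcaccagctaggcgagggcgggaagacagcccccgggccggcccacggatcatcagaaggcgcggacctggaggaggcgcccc
SESN2: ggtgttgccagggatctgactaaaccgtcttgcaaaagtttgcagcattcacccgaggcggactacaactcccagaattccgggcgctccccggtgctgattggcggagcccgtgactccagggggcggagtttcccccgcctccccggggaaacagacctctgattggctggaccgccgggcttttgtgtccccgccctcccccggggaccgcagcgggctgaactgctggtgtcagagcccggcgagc
The NIBAN1 and SESN2 windows, like most of the 10, held none of these letters. Sites outside the windows were not searched. A match or its absence is a description of the sequence only.

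Values are linear probe set signals, and each difference is the mean log2 signal of the NS398 arrays minus that of the control arrays, with the standard error (SE) from the model. The median signal was 76.0 to 80.2 in the NS398 arrays and 65.0 to 80.1 in the control arrays, and the median log2 signal differed by 0.12 (NS398 minus control, two-sided exact permutation p = 0.3, where 3 against 3 arrays allow no p below 0.1). Pearson's r across bright probe sets (mean log2 signal above 7, a signal of 128) was 0.961 to 0.983 within groups and 0.931 to 0.952 between them. Of 7 colon epithelium markers, EPCAM, CDH1, KRT8, KRT18, KRT20 and VIL1 were bright, while KRT20 rose by 1.15 ± 0.11 (SE, limma adjusted p = 0.000169), VIL1 fell by 0.71 on the log2 scale (SE 0.13, adjusted p = 0.00895), and CDX2 was dim at a signal of 38.3 in NS398 and 46.0 in control arrays. Of 6 fibroblast, 4 leukocyte and 5 endothelium markers 1 each was bright (COL1A1, LYZ and PECAM1). The summed signal of the fibroblast list was 593.8 to 801.8 in NS398 and 456.1 to 579.2 in control arrays. That of the colon epithelium list was 117887 to 125794 in NS398 and 100375 to 114412 in control arrays, while the leukocyte and endothelium sums overlapped. For ACTB, the signal of the 3′ probe set over that of the 5′ one, which grows as RNA is degraded, was 1.56 ± 0.13 in NS398 and 1.29 ± 0.03 in control arrays (SD, n = 3 each, exact permutation p = 0.1, two-sided). For GAPDH the same ratio was 1.10 ± 0.09 in NS398 and 1.03 ± 0.06 in control arrays (exact permutation p = 0.5), and the groups overlapped. KRT20, VIL1, the ACTB ratio and the fibroblast and epithelium sums moved with the groups, and their part in the results was not tested. Within the epithelium sum, KRT20 had geometric means of 17811 in NS398 and 8022 in control arrays. The groups overlapped for EPCAM, KRT8, KRT18 and CDX2, and CDH1 was lower in the NS398 arrays without passing (-0.21). Of the fibroblast list, the groups overlapped for COL1A1 and for all others but THY1, which was dim.

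NIBAN1 and SESN2 stood out as higher in the NS398 arrays, together with DDIT4 and EIF4EBP1, while SESN1 and SESN3 were lower. Directions follow the deposited labels, and the text of the study gives SESN1 and CEBPB the opposite direction, while PTGS2, which encodes COX2, was lower in the NS398 arrays without passing the threshold, so each value is that of the arrays labelled NS398 and of those labelled control. By limma with a variance trend and Benjamini-Hochberg adjustment over all probe sets, 9 of the 21 probe sets were past the threshold (adjusted p under 0.05), 7 of them higher and 2 lower, and the groups did not overlap for 13 (24.1% of all probe sets), where 6.43% of all probe sets passed (3.26% higher and 3.17% lower). At the brightest probe set of each gene 7 of 10 genes passed, 5 higher and 2 lower, where 10.1% of all genes (5.23% higher and 4.85% lower) and 17.7% of bright genes did. The groups did not overlap for 9 of the 10 genes, where that was so of 30.6% of all genes and 45.1% of bright genes. Since the list was drawn up with these results known, nothing is read from these shares. With plain limma 1 of the 21 probe sets passed, that of NIBAN1, where 0.0439% of all did. In RNA from whole cultures, fewer cells with a transcript and less of it per cell cannot be told apart.

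**Figure D1:**
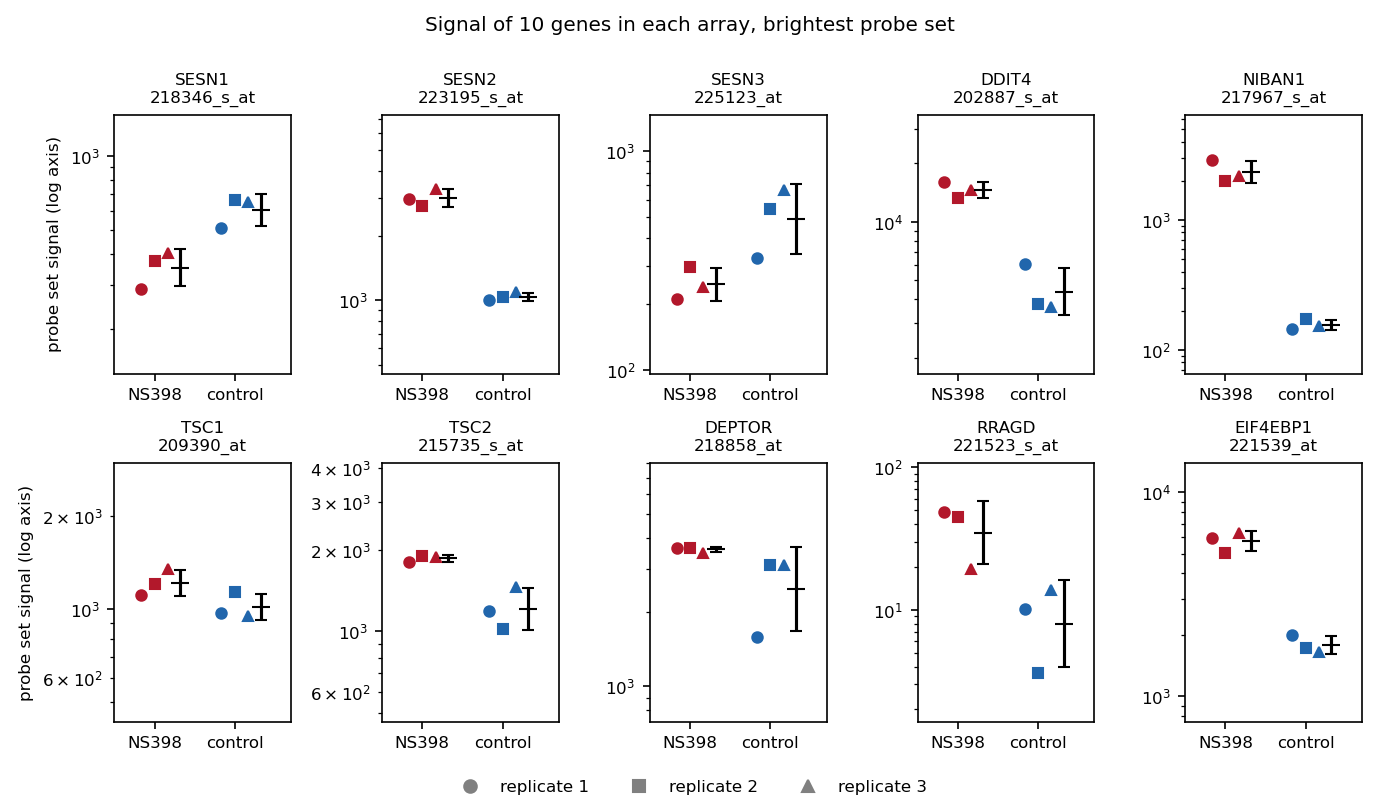
Probe set signal (log axis, arbitrary units) of the 10 genes in the 3 NS398 arrays (red) and the 3 control arrays (blue), at the brightest probe set of each gene, with the geometric mean ± SD of the log2 signal beside them (black bars). Only for TSC1 do the groups overlap, and for NIBAN1 the geometric means are 2337 in NS398 and 156 in control arrays.

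NIBAN1, a stress-induced protein that affects the phosphorylation of translation regulators, had the largest difference of the 10 genes. At the brighter of its 2 probe sets the signal was 2911, 1999.8 and 2192 in the NS398 arrays, against 144, 172 and 152 in the control arrays. At the other it was 1539, 1217 and 1231 in the NS398 arrays, against 112, 54.8 and 76.4 in the control arrays. Both probe sets thus placed every NS398 array far above every control array, and NS398 replicate 1 was the highest at each. The differences were 3.91 ± 0.18 (SE, 15.0-fold) and 4.09 ± 0.26 (17.0-fold), and the first ranked 4 of 10668 bright genes counted from the highest. Under the 15 alternative settings it lay between 3.66 and 4.02. Control signals of this gene were low, and the value of 3.66 came from adding 32 to every signal before the logarithm.

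SESN2 was the only sestrin that was higher in the NS398 arrays. At its brighter probe set the signal was 2964, 2740.4 and 3309 in the NS398 arrays, against 1002, 1034 and 1090.5 in the control arrays, a difference of 1.52 ± 0.12 (SE, 2.88-fold). At its other probe set it was 1393, 1255 and 1489 in the NS398 arrays, against 593, 640.4 and 508 in the control arrays, a difference of 1.25 ± 0.15 (2.38-fold). The 3 control arrays lay close together at both and the groups were far apart. Among bright genes the first difference ranked 89 of 10668 from the highest.

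SESN1, a sestrin gene induced by p53, is represented by a single probe set. Its signal was 291, 377 and 405 in the NS398 arrays, against 510.1, 663 and 650.2 in the control arrays, a difference of -0.77 ± 0.19 (SE, 1.71-fold lower). NS398 replicate 1 was the lowest array and control replicate 1 the lowest of the controls, and the groups did not overlap. SESN1 kept its direction under all 15 alternatives but passed in only 8 of them. Besides the plain limma fit and that with a replicate block, it missed the threshold without NS398 replicate 1 (-0.63), NS398 replicate 2 (-0.82), NS398 replicate 3 (-0.87), control replicate 2 (-0.70) and control replicate 3 (-0.72).

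SESN3, a sestrin gene activated by FOXO factors, has 7 probe sets, of which only 1 was bright. This one had a signal of 212, 297 and 239 in the NS398 arrays, against 327, 546 and 666 in the control arrays, a difference of -0.99 ± 0.27 (SE, 1.99-fold lower). The groups did not overlap, although control replicate 1 lay close to NS398 replicate 2, and the 3 controls were spread widely (SD 0.53 on the log2 scale). Of the 6 dim probe sets 5 had differences of -1.97 to -0.77 and 1 of 1.14, and these 6 did not pass. For the bright probe set 8 of 15 alternatives passed. It missed the threshold in the plain limma fit, without NS398 replicate 1 (-0.88), NS398 replicate 2 (-1.13), NS398 replicate 3 (-0.97), control replicate 2 (-0.92) and control replicate 3 (-0.78), and as the mean of all 7 probe sets (-0.87). The 3 sestrins thus did not share a direction in these arrays.

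**Figure D2:**
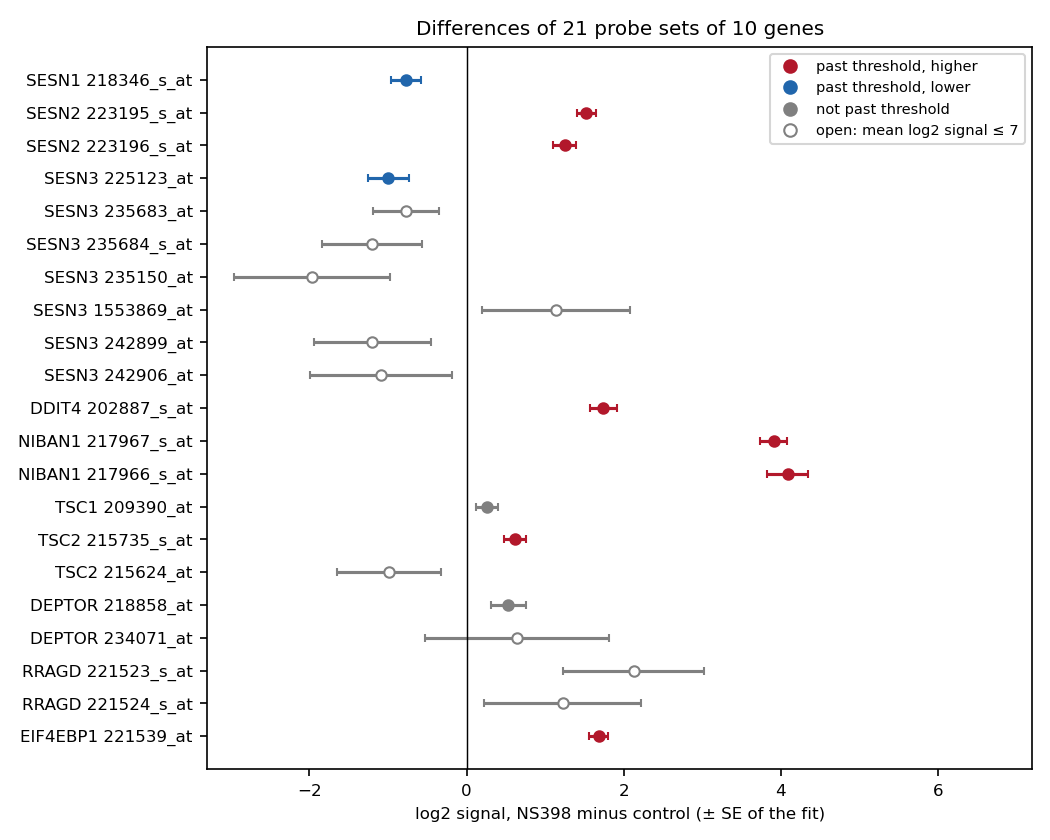
Difference in log2 signal, NS398 minus control, of the 21 probe sets (points, bars are ± SE of the variance-trend fit). Filled points have a mean log2 signal above 7, and colour marks the probe sets past an adjusted p of 0.05. Probe sets of one gene agree for SESN2 and NIBAN1, and the bright and the dim probe set of TSC2 lie on opposite sides of 0.

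DDIT4, an inhibitor of mTORC1 induced by hypoxia, glucocorticoids and other stresses, had high signals in all arrays. They were 16137, 13332 and 14548 in the NS398 arrays, against 6039.6, 3800.1 and 3635 in the control arrays. All NS398 arrays lay above all control arrays, and control replicate 1 was clearly the highest of the controls. The difference was 1.74 ± 0.17 (SE, 3.35-fold), and it was 1.98 without control replicate 1. It ranked 59 of 10668 bright genes from the highest.

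EIF4EBP1, which encodes the translation repressor that mTORC1 phosphorylates to release the cap-binding protein, was higher by nearly the same amount. Its signal was 5970.0, 5060.0 and 6298 in the NS398 arrays, against 2004, 1729.6 and 1650.3 in the control arrays. The groups were well apart and each was tight, with SDs of 0.16 and 0.15 on the log2 scale. The difference was 1.69 ± 0.12 (SE, 3.22-fold), rank 62 of 10668. DDIT4, EIF4EBP1 and both probe sets of SESN2 missed the threshold in 1 alternative each, the plain limma fit.

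The TSC complex showed smaller differences. TSC2, the subunit that acts on RHEB, had a signal of 1802, 1892 and 1882 in the NS398 arrays, against 1194, 1021 and 1459 in the control arrays, at its bright probe set. The NS398 arrays were almost alike, while the controls differed among themselves, and the groups did not overlap. The difference was 0.62 ± 0.14 (SE, 1.53-fold). A dim probe set of TSC2 gave 69.8, 12.7 and 66.6 in the NS398 arrays, against 82.4, 85.5 and 65.1 in the control arrays, with overlapping groups. The call for TSC2 held in 7 of 15 alternatives. It was lost in the plain limma fit, with a replicate block, after median centring (0.50), as the mean of both probe sets (-0.18), and without NS398 replicate 1 (0.64), NS398 replicate 2 (0.60), NS398 replicate 3 (0.61) or control replicate 2 (0.49). For TSC1, which stabilises TSC2, the signal was 1107, 1204 and 1347 in the NS398 arrays, against 972, 1133 and 948 in the control arrays. These groups overlapped, and the difference of 0.26 ± 0.14 did not pass.

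DEPTOR and RRAGD did not pass either. DEPTOR, an inhibitory subunit bound to the mTOR kinase, had a signal of 3639, 3633 and 3481 in the NS398 arrays, against 1579.5, 3093 and 3109 in the control arrays. The difference of 0.53 ± 0.22 (SE) was 0.21 without control replicate 1, the lowest array. The second DEPTOR probe set had signals of 1.9 to 9.5 in the NS398 arrays and 1.3 to 18 in the control arrays, near the lower limit of the array. RRAGD, a Rag GTPase that pairs with RagA or RagB, was dim at both probe sets, with 48.4, 44.9 and 19.3 in the NS398 arrays, against 10.2, 3.6 and 13.7 in the control arrays, at the brighter one. All NS398 arrays lay above the controls, yet the difference of 2.13 ± 0.90 did not pass and shrank to 0.74 when 32 was added to each signal. At the other probe set of RRAGD the groups overlapped (4.8 to 22.0 in NS398 and 2.1 to 12.1 in control arrays).

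**Figure D3:**
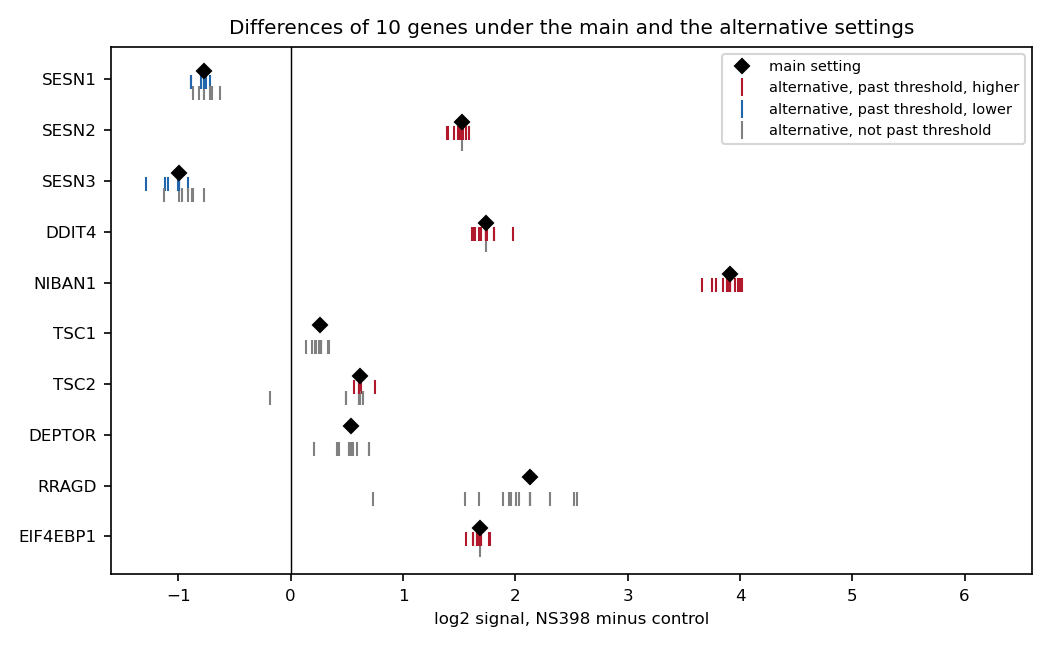
Difference in log2 signal, NS398 minus control, of the 10 genes at their brightest probe set under the main setting (diamonds) and under each alternative setting (ticks, the lower row of ticks for those not past an adjusted p of 0.05). NIBAN1 stays between 3.66 and 4.02, while TSC2 reaches -0.18 when its probe sets are averaged.

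Genes of like pattern were sought for NIBAN1 and SESN1 among 10667 other bright genes, over the 6 arrays. For NIBAN1 they were CLGN, GPAT3 and HAX1, each with a Pearson's r of 0.999, and differences of 4.20, 1.43 and 0.98. For SESN1 they were CSTPP1 (r = 0.997), SLC26A2 (0.995) and KIAA0319L (0.995), with differences of -0.29, -0.53 and -0.74. These are the highest of many values over the same 6 arrays, and r follows the shape and not the size of a difference.

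The other genes of the mTORC1 pathway were read in the same way, with differences between -1.33 (CASTOR2) and 1.57 (GRB10). Of 67 listed genes that were not among the 10, 64 were measured, and 12 of them passed by the variance-trend limma test (9 higher, 3 lower). This is 18.8%, against 10.1% of all genes and 17.7% of bright genes, and 59 of the 64 were bright (20.3% of these passed). KICS2 did not pass at its brightest probe set (0.51 ± 0.18, SE). It passed as higher at its others (1.32 ± 0.18 and 1.03 ± 0.27) and as the mean of its probe sets (0.95). The median difference of the 64 genes was 0.12, against 0.06 over all genes at their brightest probe set. For the 59 bright ones it was 0.11, against 0.01 over all bright genes. The counts here rest on the brightest probe set unless stated. Those by role below stand beside the same 10.1% of all genes and 17.7% of bright genes. The list was chosen with earlier results known, so nothing is read from its counts. With each array centred on its median, 6 of the 64 passed (3 higher, 3 lower), and the median difference of the 64 was 0.002. Over all probe sets the split of 1782 higher and 1731 lower became 864 and 1943. By plain limma 0 of the 64 passed, with 14 at an unadjusted p under 0.05. The ACTB ratio (1.56 in NS398 and 1.29 in control arrays) moved with these differences too, while the groups overlapped for the GAPDH ratio. Their part was not tested.

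Among targets and outputs of mTORC1, 3 of 15 genes passed, each as higher. GRB10, an adaptor that mTORC1 phosphorylates and that restrains insulin receptor signalling, had a signal of 5067, 4743 and 4779 in the NS398 arrays, against 1722, 1509 and 1673 in the control arrays. The groups were far apart, and all 4 of its probe sets were higher. The difference was 1.57 ± 0.11 (SE, limma adjusted p = 1.78e-05). LARP1, a repressor of messages for ribosomal proteins, had 10324, 11066 and 11054 in the NS398 arrays, against 7035, 7159.6 and 6792 in the control arrays (0.63 ± 0.09, adjusted p = 0.00154). Of its 4 probe sets 3 were higher and passed, and the dim other one lay lower, so that the call was lost in their mean (0.14). The third, EIF4B, a translation initiation factor named after its values were seen, differed by 0.35 ± 0.08 and kept its call in 8 of 15 alternatives. It lost it without NS398 replicate 1 (0.32), NS398 replicate 2 (0.31) or control replicate 3 (0.34), after median centring (0.22) and as the mean of its probe sets (0.14).

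The folliculin and AMPK genes that passed were also higher. FLCN, which encodes folliculin, a protein that acts on RagC and RagD at the lysosome, had a signal of 670.0, 608 and 609 in the NS398 arrays, against 206, 365 and 357 in the control arrays. All arrays of the groups were separate, and the difference was 1.07 ± 0.23 (SE, limma adjusted p = 0.0171), lost without NS398 replicate 1 (1.02), NS398 replicate 2 (1.09) or NS398 replicate 3 (1.09). Of 12 upstream kinase genes 2 passed. PRKAG1, a regulatory subunit of AMPK, differed by 0.69 ± 0.11 (adjusted p = 0.00363), and PRKAB2, another AMPK subunit, by 0.59 ± 0.15 (adjusted p = 0.0474), the second in only 6 of 15 alternatives. PRKAB2 missed the threshold without NS398 replicate 1 (0.57), NS398 replicate 2 (0.61), NS398 replicate 3 (0.58), control replicate 2 (0.48) or control replicate 3 (0.60). PRKAG1 did not pass after median centring (0.57).

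Sensors and Rag-linked genes moved both ways. Of 3 amino acid sensor genes 2 fell. CASTOR2, a relative of the arginine sensor CASTOR1, had a signal of 489, 323 and 338 in the NS398 arrays, against 863.5, 909.5 and 1084 in the control arrays (-1.33 ± 0.19, limma adjusted p = 0.00196). The groups were far apart, although CASTOR genes have close copies in the genome and the specificity of the probes was not tested. SAMTOR, a sensor of S-adenosylmethionine, had 462, 389.8 and 377 in the NS398 arrays, against 634, 887 and 806.5 in the control arrays (-0.91 ± 0.18, adjusted p = 0.0106), a call lost without NS398 replicate 2 or control replicate 3 (-0.88 each). Of 8 Rag and Ragulator genes RRAGC, the paralogue of RRAGD, rose by 0.53 ± 0.13 (adjusted p = 0.0378) and LAMTOR2, a Ragulator scaffold subunit, fell by 0.47 on the log2 scale (SE 0.11, adjusted p = 0.0210). RRAGC kept its call in 7 and LAMTOR2 in 10 of 15 alternatives. RRAGC lost it without NS398 replicate 1 (0.55), NS398 replicate 2 (0.51), NS398 replicate 3 (0.54) or control replicate 3 (0.60), and LAMTOR2 without NS398 replicate 1 (-0.45), NS398 replicate 2 (-0.46) or control replicate 3 (-0.45). Of 5 GATOR2 genes 2 passed as higher, MIOS (0.52) and SEH1L (0.41), both named after their values were seen. They kept their calls in 5 and 6 of 15 alternatives. MIOS lost its call without any 1 of the 6 arrays (0.48 to 0.57), and SEH1L without any but control replicate 1 (0.39 to 0.45). As the mean of its probe sets MIOS turned to -0.011. Median centring ended the calls of PRKAB2 (0.47), RRAGC (0.41), MIOS (0.40) and SEH1L (0.29), and averaging over probe sets those of FLCN (1.10), PRKAB2 (0.57), RRAGC (0.63) and SEH1L (0.28).

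None of the 4 core subunits of mTORC1 passed, with 1 at an unadjusted p under 0.05 by variance-trend limma and 0 by plain limma. MTOR, the kinase, had a signal of 380.3, 389.8 and 375 in the NS398 arrays, against 290.2, 363 and 286.5 in the control arrays (0.29 ± 0.18, adjusted p = 0.449). RPTOR, which recruits substrates, had 347, 257 and 546 in the NS398 arrays, against 432, 408 and 378 in the control arrays (-0.15 ± 0.25, adjusted p = 0.820). RHEB, the GTPase that activates mTORC1, differed by 0.21 ± 0.08 (adjusted p = 0.196). The groups were separate for MTOR and RHEB and overlapped for RPTOR.

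**Figure D4:**
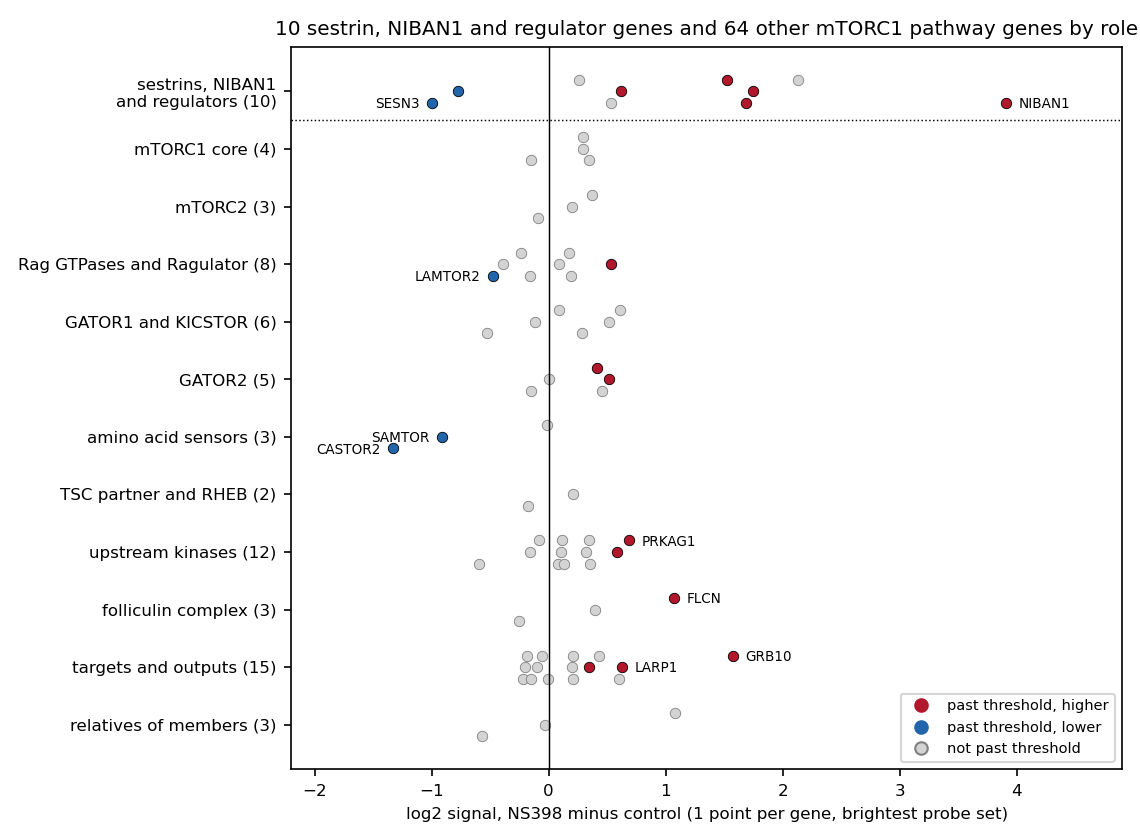
Difference in log2 signal, NS398 minus control, of the 10 genes (top row) and of 64 other mTORC1 pathway genes by role (1 point per gene at its brightest probe set, number of genes in parentheses, vertical offsets within a row only separate points). Red and blue points passed an adjusted p of 0.05. GRB10 lies farthest to the right (1.57) and CASTOR2 farthest to the left (-1.33) of the other genes.

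Several of the 10 genes are known targets of stress-regulated transcription factors, and 8 such factors were measured. Of these 3 rose and 0 fell by variance-trend limma, with 4 of 8 at an unadjusted p under 0.05. Over all genes 10.1% passed, over bright genes 17.7%, and 10111 of 54675 probe sets had an unadjusted p under 0.05. This list too was drawn up with earlier results of these data known, so nothing is read from these counts. ATF4, the main factor of the integrated stress response and a known activator of SESN2, DDIT4 and EIF4EBP1, had a signal of 41874, 41219.5 and 40492 in the NS398 arrays, against 20865, 20235 and 19065 in the control arrays (1.04 ± 0.08, SE, adjusted p = 3.06e-05). CEBPB rose by 1.32 ± 0.10 (adjusted p = 4.14e-05) and DDIT3 by 1.10 ± 0.17 (adjusted p = 0.00294). These 3 passed in every alternative but the plain limma fit. FOXO1 (0.28 ± 0.22), FOXO3 (0.19 ± 0.11), HIF1A (0.06 ± 0.10), TFEB (0.60 ± 0.24) and NR3C1 (0.53 ± 0.90), the glucocorticoid receptor gene that was dim here, did not pass. PTGS2, which encodes COX2, had 147.5, 142 and 76.3 in the NS398 arrays, against 184, 383 and 328 in the control arrays, and the difference of -1.29 ± 0.35 (SE) did not pass (adjusted p = 0.0532).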

How the data were processed

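The authors deposited 1 linear signal intensity per probe set and array. Their methods describe gcRMA with quantile normalisation, yet the arrays share no quantiles and each averages 500 once 2% of the values at either end are set aside, the scaling of MAS 5.0. According to the submitters' processing notes affy was used, and its version is not given in the sources used here. Log2 of each value was taken with no other normalisation. Probe sets were named by the platform annotation, matched to RefSeq by Entrez number. A gene was read from its brightest probe set (highest mean log2 signal).

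Differences were fitted with limma 3.58.1 (R 4.3.3, lmFit and eBayes with trend and robust estimation), with 1 term (treatment) and Benjamini-Hochberg adjustment over 54675 probe sets. SAM, the test of the study, draws its p-values from regrouped arrays and was not run. The fit was checked on simulated data with 3 arrays per group, where 50 probe sets were given a difference at each fold. It recovered 0 of 50 at 1.5-fold, 4 at 2-fold, 12 at 4-fold and 18 at 8-fold, with 0 false calls. Of the bright ones among them it recovered 0 of 21, 4 of 20, 11 of 18 and 17 of 19. In the simulation, differences of 2-fold or less were thus mostly missed. Few probe sets differed there, which makes the adjusted threshold stricter than in the data, where 3513 passed. These shares do not carry over to the data, where EIF4B passed at 1.27-fold. A gene that did not pass may still differ.

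The genes and the lists were chosen with earlier results of these data known. Named genes were the 10 genes, the called pathway genes with up to 6 largest differences in each direction, MTOR, RPTOR, RHEB, 8 upstream factors, PTGS2, and the 3 genes most like NIBAN1 and SESN1. Without a probe set of their own, 3 of 67 pathway genes and 1 of 9 factors are not reported here. Alternatives were plain eBayes, median centring, quantile normalisation, mean log2 signals above 4 or 7, an offset of 32, array weights, the replicate number as a block, the mean of a gene's probe sets, and leaving out each array. The replicate numbers come from the sample titles.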

Additional observations from a re-analysis of the deposited data

How the results depend on the processing

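The number of arrays and the spread of dim signals limit these results, and 10 of the 21 probe sets had a mean log2 signal of 7 or less. With plain limma 24 probe sets passed in place of 3513, 1 in place of 9 of the 21, 0 in place of 12 pathway genes (14 at an unadjusted p under 0.05) and 0 in place of 3 upstream factors (4 at an unadjusted p under 0.05), where the prior degrees of freedom were 1.36 against a median of 7.07 with the trend. Median centring, averaging over the probe sets of each gene and the replicate block each left 6 pathway genes past the threshold. Same-numbered samples did not deviate together (r = -0.14, -0.06 and -0.10 for replicates 1, 2 and 3), so the replicate numbers were taken as names only, and with the replicate block 7 of the 21 probe sets and 2462 of all probe sets passed. Without single arrays, 1826 to 3984 of all probe sets, 6 to 9 of the 21, 4 to 13 pathway genes and 3 to 3 upstream factors passed. The counts that fell by over 1.5 times were those of all probe sets without NS398 replicate 1 (1826), NS398 replicate 2 (1896), NS398 replicate 3 (2340) or control replicate 3 (1876), and those of pathway genes without NS398 replicate 1 (5), NS398 replicate 2 (4) or control replicate 3 (5). Averaged over their probe sets, TSC2 (-0.18) and MIOS (-0.011) turned to the other side of 0, and each has a dim probe set that lay lower. The causes of the other shifts were not tested. SESN2, DDIT4, NIBAN1 and EIF4EBP1 kept their direction under every alternative tried, as did SESN1, SESN3, TSC1, DEPTOR and RRAGD at their brightest probe sets.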
